A study of Mus musculus with 6 samples.

Results

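The 41 genes described here drive the cell division cycle and copy the genome. They were taken by gene symbol from 6 tables of RNA levels in mouse lung, and all 41 were found among the 23183 genes listed. For description they were divided into 22 genes of entry into S phase and DNA replication (G1/S) and 19 genes of mitosis and its preparation (G2/M). The 3 saline libraries came from lungs of C57BL/6 mice labelled wild type that had saline instilled into the trachea. The 3 LPS libraries came from lungs that had lipopolysaccharide (LPS), a component of the outer membrane of Gram-negative bacteria, instilled by the same route. Their titles name wild-type mice, but the genotype field gives LCN2-/- for LPS 1 and LPS 2 and LCN4-/- for LPS 3. Lcn2 RNA was 13.60 in LPS 1 and 13.29 in LPS 2, against 8.20 to 11.28 in saline, which goes against a knockout label at the level of RNA, although a value for the whole gene does not show which exons were read. If the genotype field is right, treatment and genotype cannot be told apart in any difference below. No dose, time after instillation or age of the mice is stated in the labels.

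Each value below is a deposited log2(expression value + 1), and a difference is the LPS mean less the saline mean on this scale, which understates changes of genes with low values. A fold below is taken from such a difference, so it compares expression value + 1 and not the expression value itself. The depth of the libraries is unknown. The table of LPS 3 stops part way through the alphabet, so Tk1, Top2a, Tyms and Ube2c have 2 LPS values each. The saline tables hold 1505 to 1936 values above 0 but under 0.01, and the LPS tables hold 11 to 24. No value of the 41 genes lay in that range, the lowest being 0.05. Marker genes of alveolar type 2 cells, the surfactant-making cells that identify lung, averaged 7.36 to 8.48 over 9 markers in every library. Whether each library is a different animal is not stated, so the p-values rest on a spread between libraries that may be technical. In bulk tissue, fewer dividing cells and less RNA per cell cannot be told apart.

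Cells enter the cycle when D-type cyclins activate the kinases CDK4 and CDK6, which phosphorylate the retinoblastoma protein and free E2F transcription factors. E2F turns on cyclin E and the genes that load the replicative helicase onto DNA and supply nucleotides. Later, cyclin A and cyclin B with CDK1 drive mitosis, the spindle checkpoint holds back chromosome separation, and the anaphase-promoting complex ends it. Most cells of the adult lung are resting, and epithelial and endothelial cells can divide again after injury.

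Promoter sequence divides the G1/S and G2/M genes in a way that gene choice did not use. RefSeq promoter windows of 300 bases (250 before and 50 after the annotated start, GRCm38.p6) were matched for 34 of the 41 genes, giving 20 windows for 18 G1/S genes and 16 windows for 16 G2/M genes. The motifs were searched on both strands. The E2F motif was taken as TTCCCGC or TTCGCGC, and equally as TTGCCGC or TTGGCGC. The CCAAT box, bound by NF-Y, is its own letters, and the cell cycle homology region (CHR), bound by the DREAM and MuvB complexes, was taken as TTTGAA. Matches of the same motif or of different motifs may overlap. An E2F match stood in 10 of the 20 G1/S windows, 18.8% of G2/M windows and 9.57% of all 32851 windows. A CHR match stood in 75.0% of G2/M windows, 1 G1/S window (Mcm2) and 17.9% of all windows. A CCAAT match stood in 93.8% of G2/M windows, 55.0% of G1/S windows and 37.4% of all windows. A match describes the letters and does not show that a factor binds there.

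The windows below belong to the genes lower in LPS that hold at least 1 match, and they show the contrast between the G1/S promoters of Rrm2 and Mcm7 and the G2/M promoters of Cenpa and Bub1b. Capitals mark the matches, on either strand, and each sequence runs 5′ to 3′ along the gene. They lie at chr12:24708004-24708303 (plus strand, Rrm2), chr5:138171834-138172133 (minus strand, Mcm7), chr5:30666636-30666935 (plus strand, Cenpa) and chr2:118597961-118598260 (plus strand, Bub1b).
Rrm2: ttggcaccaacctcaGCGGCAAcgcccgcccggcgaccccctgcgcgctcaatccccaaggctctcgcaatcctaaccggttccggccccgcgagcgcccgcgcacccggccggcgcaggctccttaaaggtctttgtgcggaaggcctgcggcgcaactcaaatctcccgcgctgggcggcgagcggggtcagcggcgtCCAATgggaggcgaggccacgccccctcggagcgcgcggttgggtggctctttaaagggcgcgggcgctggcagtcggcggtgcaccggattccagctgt
Mcm7: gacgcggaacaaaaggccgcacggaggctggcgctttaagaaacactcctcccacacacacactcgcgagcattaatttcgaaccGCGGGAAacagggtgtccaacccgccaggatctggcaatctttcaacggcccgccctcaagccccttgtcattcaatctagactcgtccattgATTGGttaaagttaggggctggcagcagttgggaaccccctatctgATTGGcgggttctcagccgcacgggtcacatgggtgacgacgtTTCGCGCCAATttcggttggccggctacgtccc
Cenpa: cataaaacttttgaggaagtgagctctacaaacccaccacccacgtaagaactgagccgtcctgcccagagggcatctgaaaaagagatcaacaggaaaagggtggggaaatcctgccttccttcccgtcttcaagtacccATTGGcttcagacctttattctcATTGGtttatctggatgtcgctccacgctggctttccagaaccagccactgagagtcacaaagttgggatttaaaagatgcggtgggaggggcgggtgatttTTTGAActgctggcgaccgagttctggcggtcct
Bub1b: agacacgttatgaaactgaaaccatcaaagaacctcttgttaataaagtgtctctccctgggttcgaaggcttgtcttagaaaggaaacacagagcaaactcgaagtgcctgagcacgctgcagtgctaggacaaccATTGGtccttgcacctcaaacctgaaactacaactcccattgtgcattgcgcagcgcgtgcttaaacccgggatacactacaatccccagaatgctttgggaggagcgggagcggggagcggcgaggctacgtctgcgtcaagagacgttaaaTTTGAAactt
The Mcm7 window printed holds 3 E2F and 3 CCAAT matches, and the Rrm2 window 1 of each. In the Mcm7 window, 2 of the E2F matches overlap each other and a CCAAT match, and stand as 1 run of capitals. Mcm7 has a second window, at chr5:138171217-138171516 and not printed, with 1 E2F and 1 CCAAT match. The Cenpa window holds 2 CCAAT matches and 1 CHR, and the Bub1b window 1 of each. The windows of E2f1 (chr2:154569377-154569676) and Cdk6 (chr5:3343643-3343942), also lower in LPS, held none of the motifs. Both lie inside the gene positions given below, so the bases upstream of those positions were not searched. No window was matched for Ccnd2.

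**Figure D1:**
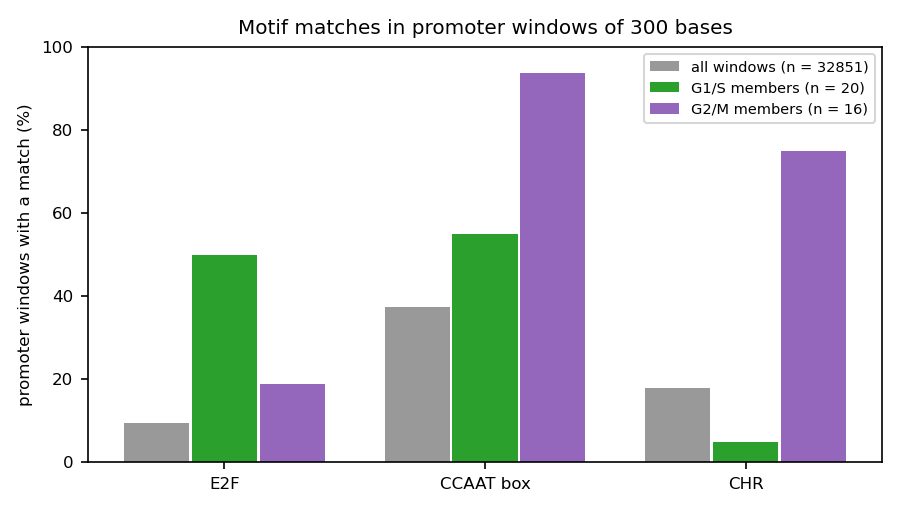
Share of promoter windows of 300 bases with at least 1 match to the E2F, CCAAT or CHR motif on either strand, in percent, for all 32851 windows, 20 windows of G1/S genes and 16 windows of G2/M genes. The E2F bar is highest for G1/S genes, with 10 of 20 windows, and the CHR bar is highest for G2/M genes at 75.0%.

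None of the 41 genes was called higher in lungs given LPS, and 7 were called lower, by 1.38-fold (Ccnd2) to 2.03-fold (Rrm2). The G1/S genes called lower were the transcription factor gene E2f1, the kinase gene Cdk6, the cyclin gene Ccnd2, the helicase gene Mcm7 and the ribonucleotide reductase gene Rrm2. The G2/M genes called lower were Cenpa, which encodes the histone of centromeres, and the spindle checkpoint gene Bub1b. For many of the other genes the saline libraries differed among themselves by more than the groups did, with saline 1 near the LPS libraries. The question asked of these genes is the one the design states, saline against LPS in the lung.

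The calls come from limma fitted across 13116 genes with Benjamini-Hochberg adjustment and a threshold of 0.05. Of the 41 genes, 32 passed the filter of at least 3 libraries with a value of 1 or more before the log. Across all genes tested 50.1% were called, 25.7% higher and 24.3% lower. Of the 19 G1/S genes tested 5 were lower (26.3%) and 0 higher, and of the 13 G2/M genes tested 2 were lower (15.4%) and 0 higher. The share called lower was therefore near the background among G1/S genes and under it among G2/M genes, while no gene stood among those higher. At an unadjusted p under 0.05, 12 of the 32 passed, against 57.3% of all genes tested. The median difference was -0.28 for G1/S genes and -0.56 for G2/M genes, against 0.02 for all genes tested. The order of the 2 groups depended on scaling. With quantile normalization the median was -0.35 for G1/S genes and -0.22 for G2/M genes, against 0.01 for all genes tested. With no filter all 41 genes were tested, and 5 were lower and 0 higher (Ccnd2, Cdk6, E2f1, Bub1 and Cenpa), against 17.5% of all genes lower and 15.9% higher. Directions are relative to the scaling as deposited. Over genes with 6 values, the values before the log summed to 467483 to 552368 in the saline libraries and 854330 to 885427 in the LPS libraries. The scale of the libraries therefore differed along with treatment, and the cause was not tested. After scaling all libraries to equal sums, 64.3% of all genes were called lower and 5.94% higher, the median of all genes moved to -0.68, and relative to that shift the medians were -0.34 for G1/S and -0.33 for G2/M genes.

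**Figure D2:**
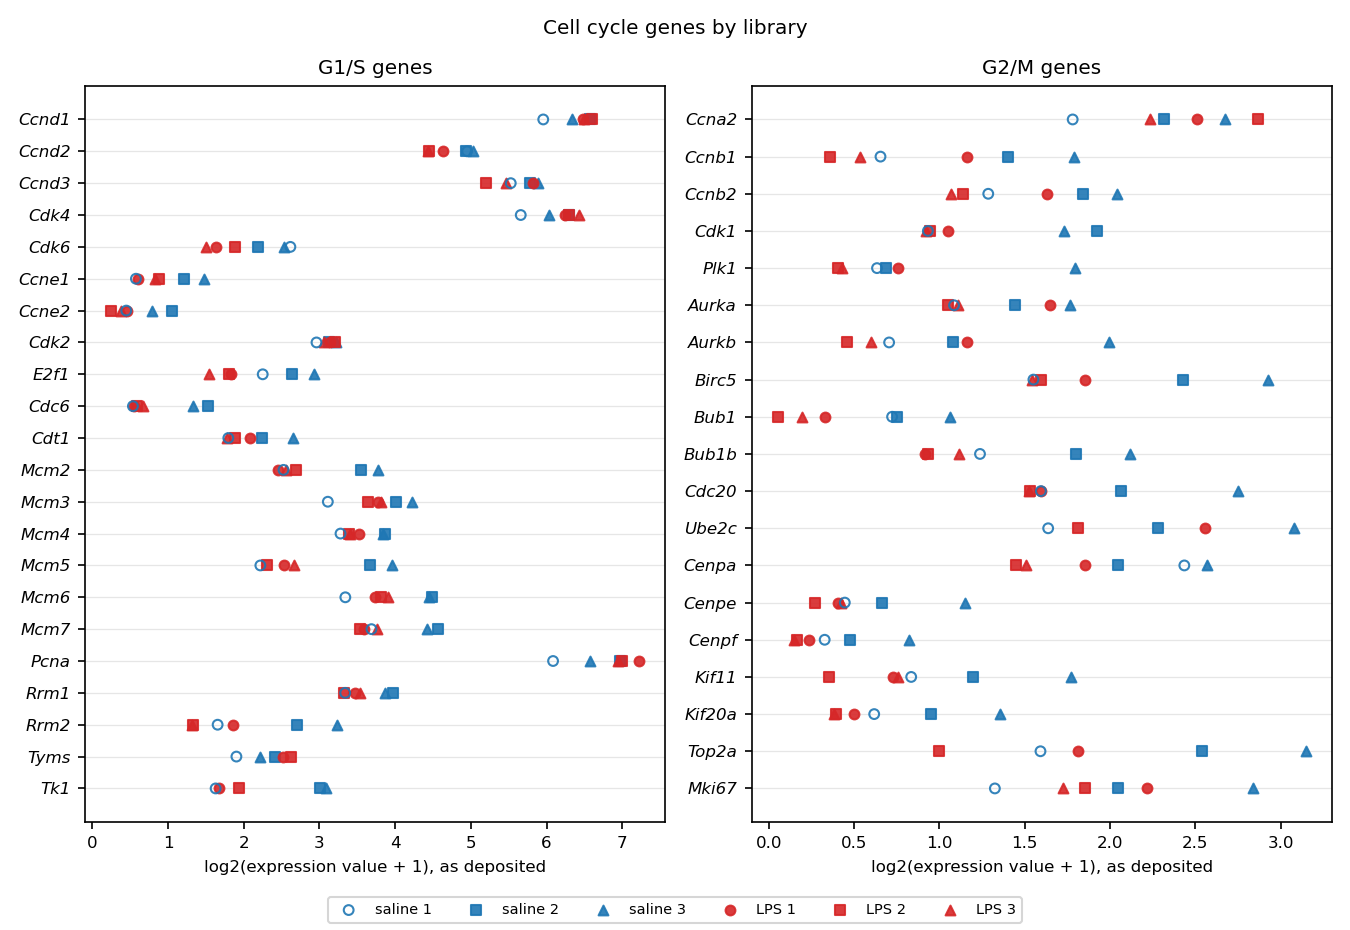
Value of each gene in each library, as log2(expression value + 1) on the x axis, with G1/S genes on the left and G2/M genes on the right. Blue symbols are saline libraries (open circles, saline 1) and red symbols are LPS libraries; saline 1 was the lowest saline library for 38 of the 41 genes.

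Saline 1 stood apart from the other saline libraries in these genes. It had the lowest of the saline values for 38 of the 41 genes, among them 29 of the 32 tested (90.6%), whereas it was lowest for 30.3% of all genes tested. The exceptions were Ccnd2, Cdk6 and Cenpa, all of which were called lower in LPS. The median gap from saline 1 to the mean of saline 2 and saline 3 was -0.58 over the tested G1/S genes and -0.83 over the tested G2/M genes, against 0.02 over all genes tested. The LPS libraries were closer together. Of the 37 genes with 6 values, 35 had a wider range in saline than in LPS (94.6%), against 62.2% of all tested genes with 6 values, and their median range was 0.88 in saline and 0.27 in LPS.

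Every LPS value lay below saline 2 and saline 3 for 21 of the 32 tested genes (65.6%), against 32.3% of all genes tested. Every LPS value lay below all 3 saline values for 5 of them (15.6%), against 30.7% of all genes tested. Without saline 1 the count of genes called lower went from 5 to 11 among G1/S genes and from 2 to 8 among G2/M genes, with 0 higher in both, while among all genes the share called lower went from 24.3% to 19.5% and the share called higher from 25.7% to 19.7%. Saline 1 stood out by its low values in these same genes. Leaving it out therefore lowers most of their differences and raises the share of them below saline 2 and saline 3. Neither that share nor the added calls are separate evidence. Marker levels of other cells also differed among the saline libraries. The summed level (log2) of 8 cardiac muscle markers was 11.11 in saline 1, 9.60 in saline 2 and 8.02 in saline 3, and that of 9 mature neutrophil markers was 9.45, 11.004 and 9.56, highest in saline 2. Their part in the spread of the cell cycle genes was not tested.

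**Figure D3:**
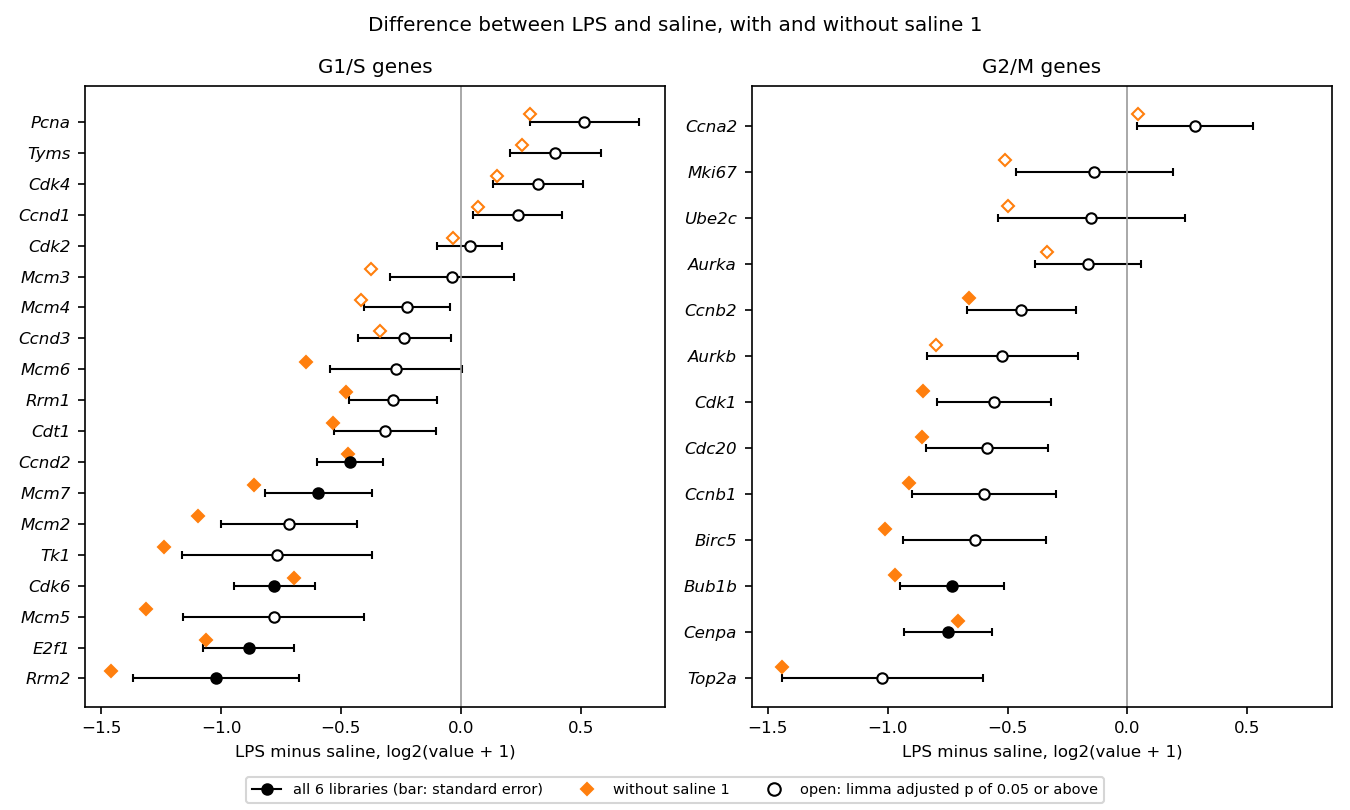
Difference between LPS and saline on the log2(value + 1) scale for the 19 G1/S and 13 G2/M genes tested, with all 6 libraries (circles, bars are standard errors) and without saline 1 (orange diamonds). Filled symbols have a limma adjusted p under 0.05: 7 genes with all libraries, all to the left of 0, and 19 without saline 1.

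Among the genes that start the cycle, the D-type cyclins and their kinases did not move as 1 group with the scaling as deposited. Ccnd2, the cyclin D2 gene (chromosome 6, 127125162 to 127152193, mm10), had values of 4.95, 4.93 and 5.03 in saline 1 to 3 and 4.64, 4.45 and 4.44 in LPS 1 to 3. The groups did not overlap, and the saline values were close together. Ccnd2 fell by 0.46 (SE 0.14; limma adjusted p = 0.0201). That call ended when saline 3, LPS 2 or LPS 3 was left out (adjusted p = 0.0638 to 0.0769). Cdk6, encoding a partner kinase of the D-type cyclins (chromosome 5, 3341485 to 3531008), was at 2.62, 2.19 and 2.54 in saline and 1.64, 1.88 and 1.496 in LPS, again without overlap. It fell by 0.78 (SE 0.17; limma adjusted p = 0.00489), or 1.72-fold, and was called lower under every alternative that tested it. Exons of antisense genes overlap both Ccnd2 and Cdk6, and the labels do not state whether counting used strand. Exons of protein-coding genes on the opposite strand overlap larger shares of Ccnd1, Cdk4, Ccne2 and Ccna2.

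The other D-type cyclins and Cdk4 did not pass with the scaling as deposited. Ccnd1, encoding cyclin D1, was 5.96, 6.58 and 6.33 in saline and 6.49, 6.60 and 6.49 in LPS, a difference of 0.24 (SE 0.19; limma adjusted p = 0.306). Ccnd3 differed by -0.24 (SE 0.19; limma adjusted p = 0.329), with overlapping groups. It was called lower with quantile normalization (-0.65, limma adjusted p = 0.0212) and with equal sums (-1.02, adjusted p = 0.00131). Cdk4, the other partner kinase, was 5.66, 6.30 and 6.04 in saline and 6.24, 6.30 and 6.42 in LPS, with a difference of 0.32 (SE 0.19; adjusted p = 0.180). Saline 1 was the low value for Ccnd1 and Cdk4, while saline 2 lay at the level of the LPS libraries. With quantile normalization the differences of Ccnd1 and Cdk4 turned below 0, to -0.31 and -0.19, without being called. With equal sums they were -0.56 (limma adjusted p = 0.0102) and -0.47 (adjusted p = 0.0262), both called lower. Ccnd2, Ccnd3 and Cdk6 were called lower under both of these scalings.

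E2f1, an E2F family member that activates S phase genes (chromosome 2, 154559407 to 154569892), was at 2.25, 2.64 and 2.92 in saline and 1.83, 1.80 and 1.54 in LPS. Every LPS value was below every saline value, saline 1 included. E2f1 fell by 0.88 (SE 0.19; limma adjusted p = 0.00457), or 1.85-fold, and leaving out single libraries gave -1.06 to -0.73 with adjusted p-values of at most 0.018. The family members E2f2 (-0.18, limma adjusted p = 0.469) and E2f3 (0.24, adjusted p = 0.238) were not called. With equal sums E2f2 was called lower (-0.86, limma adjusted p = 0.00875), and with quantile normalization E2f3 was called higher (0.57, adjusted p = 0.0147). Among the cyclin E genes, which act with CDK2 at the start of S phase, Ccne1 was 0.58 to 1.47 in saline and 0.61 to 0.89 in LPS, and Ccne2 0.45 to 1.05 and 0.25 to 0.46. Both were under the filter on low values and their groups overlapped. Cdk2, the partner of cyclin E, was 2.96 to 3.22 in saline and 3.06 to 3.21 in LPS, with a difference of 0.04 (SE 0.14; limma adjusted p = 0.839).

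Genes that load and form the replicative helicase had saline 1 as the lowest saline library throughout. CDC6 and CDT1 bring the helicase to origins. Cdc6 was 0.54, 1.53 and 1.33 in saline and 0.55, 0.60 and 0.67 in LPS, with saline 1 just below the LPS values, and it was under the filter. Cdt1 was 1.80, 2.25 and 2.66 in saline and 2.08, 1.89 and 1.78 in LPS (difference -0.32, SE 0.21; limma adjusted p = 0.239). Mcm2 to Mcm7 encode the 6 subunits of the helicase ring. For all 6 the LPS values lay below saline 2 and saline 3, and saline 1 lay within or below the LPS values.

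Mcm5 was 2.22, 3.67 and 3.96 in saline and 2.53, 2.31 and 2.67 in LPS, the widest saline range of the 41 genes. Its difference of -0.78 (SE 0.38; limma adjusted p = 0.112) became -1.31 without saline 1 (adjusted p = 0.000732). Without saline 3 it became -0.44 (limma adjusted p = 0.354). Mcm7 (chromosome 5, 138164583 to 138172422) was 3.69, 4.56 and 4.42 in saline and 3.59, 3.54 and 3.76 in LPS. It was the subunit gene called lower, at -0.59 (SE 0.22; limma adjusted p = 0.0488), but the groups overlapped. That call was lost under most alternatives, for example without saline 2 (adjusted p = 0.144), and microRNA genes and exons of other genes overlap Mcm7. Mcm2 had a difference of -0.72 (adjusted p = 0.0592), Mcm6 -0.27 (adjusted p = 0.432), Mcm4 -0.22 (adjusted p = 0.319) and Mcm3 -0.04 (adjusted p = 0.911). Without saline 1, Mcm2 (-1.10) and Mcm6 (-0.65) were also called lower, and Mcm3 and Mcm4 were not.

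Enzymes that supply nucleotides differed among themselves. Rrm2, the regulated subunit of ribonucleotide reductase (chromosome 12, 24708241 to 24714146), was 1.66, 2.70 and 3.23 in saline and 1.86, 1.33 and 1.31 in LPS. LPS 1 lay above saline 1, so the groups overlapped. Rrm2 fell by 1.02 (SE 0.35; limma adjusted p = 0.0341), or 2.03-fold, and the call ended without saline 2, saline 3, LPS 2 or LPS 3 (adjusted p = 0.0885 to 0.115), with no filter (adjusted p = 0.119) and with quantile normalization (-0.74, adjusted p = 0.151). Rrm1, the large subunit, differed by -0.28 (SE 0.18; limma adjusted p = 0.225). Tk1, encoding the S phase thymidine kinase, was 1.63, 3.003 and 3.08 in saline and 1.67 and 1.93 in LPS 1 and LPS 2. Its difference was -0.77 (SE 0.40; limma adjusted p = 0.138; no LPS 3 value).

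The genes for thymidylate synthase and for the sliding clamp of DNA polymerases had higher means in LPS, without passing. Tyms was 1.90, 2.42 and 2.21 in saline and 2.52 and 2.63 in LPS 1 and LPS 2, the gene among the 41 whose LPS values were all above saline, against 32.7% of all genes tested. Its difference was 0.39 (SE 0.19; limma adjusted p = 0.115; no LPS 3 value). Pcna, the clamp gene, was 6.09, 6.97 and 6.57 in saline and 7.22, 7.001 and 6.95 in LPS, a difference of 0.52 (SE 0.23; limma adjusted p = 0.0854). Without saline 2, Pcna (0.73), Tyms (0.51) and Cdk4 (0.47) were called higher, against 27.9% of all genes called higher and 26.2% lower, and with equal sums all 3 differences were below 0. Pcna and Tyms have pseudogenes in the annotation that could take part of their reads, as do Ccnb1, Ccnb2 and Ccnd3.

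Among mitotic cyclins and CDK1, no gene passed. Ccna2, the cyclin A gene, was 1.78, 2.32 and 2.67 in saline and 2.51, 2.87 and 2.24 in LPS, and was the G2/M gene with a difference above 0 (0.28, SE 0.24; limma adjusted p = 0.353), which was -0.37 with equal sums. Ccnb1 was 0.65, 1.40 and 1.79 in saline and 1.16, 0.36 and 0.53 in LPS (difference -0.60, SE 0.30; limma adjusted p = 0.123). Ccnb2 had a difference of -0.44 (adjusted p = 0.131). Cdk1, the mitotic kinase gene, was 0.93, 1.92 and 1.73 in saline and 1.05, 0.94 and 0.92 in LPS, with saline 1 at the level of the LPS libraries. Its difference of -0.56 (SE 0.24; adjusted p = 0.0774) became -0.85 without saline 1 (adjusted p = 0.00333). Without saline 2 it became -0.36 (limma adjusted p = 0.239).

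Among kinases and checkpoint genes of mitosis, Bub1b (chromosome 2, 118598211 to 118641591), which encodes the checkpoint protein BUBR1, was 1.24, 1.80 and 2.12 in saline and 0.92, 0.93 and 1.12 in LPS. The groups did not overlap, with saline 1 just above LPS 3. Bub1b fell by 0.73 (SE 0.22; limma adjusted p = 0.0197), or 1.66-fold, and the call ended without saline 2, saline 3 or LPS 2 (adjusted p = 0.0575 to 0.0693), with no filter (adjusted p = 0.0613) and with quantile normalization (-0.37, adjusted p = 0.23). Bub1, the related kinase gene, was under the filter, with 0.72, 0.75 and 1.06 in saline and 0.33, 0.05 and 0.19 in LPS, also without overlap. With no filter Bub1 fell by 0.65 (SE 0.12; limma adjusted p = 0.0141). The aurora kinase genes Aurka (-0.16, adjusted p = 0.558) and Aurkb (-0.52, adjusted p = 0.192) did not pass, and the polo kinase gene Plk1, under the filter, was 0.63 to 1.79 in saline and 0.41 to 0.76 in LPS. Birc5, encoding survivin, the partner of aurora B, was 1.55, 2.43 and 2.92 in saline and 1.86, 1.59 and 1.54 in LPS (difference -0.64, SE 0.30; limma adjusted p = 0.101).

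Centromere and motor genes were low in every library. Cenpa (chromosome 5, 30666777 to 30674830) was 2.43, 2.05 and 2.57 in saline and 1.85, 1.45 and 1.51 in LPS, with no overlap and no low value in saline 1. It fell by 0.75 (SE 0.18; limma adjusted p = 0.00844), or 1.68-fold, and its call ended with quantile normalization (-0.45, adjusted p = 0.0747) and held when any single library was left out. The kinetochore genes Cenpe and Cenpf and the spindle motor genes Kif11 and Kif20a were under the filter. Each had every LPS value below every saline value, with 0.83 to 1.77 in saline and 0.36 to 0.76 in LPS for Kif11, and 0.62 to 1.35 and 0.38 to 0.50 for Kif20a. Cenpf was 0.33 to 0.82 in saline and 0.15 to 0.24 in LPS, and Cenpe 0.45 to 1.15 and 0.27 to 0.42. With no filter none of the 4 passed (limma adjusted p = 0.0706 to 0.155). For Kif20a, exons of Cdc23 overlap on the opposite strand.

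Genes of mitotic exit and the common proliferation markers did not pass. Cdc20, an activator of the anaphase-promoting complex, was 1.59, 2.06 and 2.75 in saline and 1.60, 1.53 and 1.53 in LPS (difference -0.59, SE 0.25; limma adjusted p = 0.0798). Ube2c, the complex's ubiquitin-conjugating enzyme, was 1.64, 2.28 and 3.08 in saline and 2.55 and 1.81 in LPS 1 and LPS 2 (difference -0.15, SE 0.39; limma adjusted p = 0.768; no LPS 3 value), and exons of the muscle gene Tnnc2 overlap it. Top2a, the topoisomerase that untangles chromosomes, was 1.59, 2.54 and 3.15 in saline and 1.81 and 0.999 in LPS 1 and LPS 2. Its difference was -1.02 (SE 0.42; limma adjusted p = 0.0716; no LPS 3 value). Mki67, encoding the Ki-67 antigen, was 1.32, 2.04 and 2.84 in saline and 2.22, 1.85 and 1.73 in LPS, so that the LPS values lay inside the saline range (difference -0.14, SE 0.33; limma adjusted p = 0.743).

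Other genes of the same machinery were taken from lists. Of 43 tested genes of origin licensing and the replication fork, 8 were lower and 1 higher, and of 25 tested genes of the spindle and cytokinesis, 6 were lower and 3 higher, against 24.3% and 25.7% of all genes. The replication genes called lower most were Rrm2b (-0.996), a p53-regulated reductase subunit, the methyltransferase gene Dnmt1 (-0.97) and the polymerase gene Pola1 (-0.67, not called with quantile normalization), and the one called higher was the origin recognition gene Orc2 (0.49). The spindle genes called lower most were Prc1 (-0.85), Anln (-0.81) and Ect2 (-0.68), which act in cytokinesis. Those called higher were Cks2 (1.66), which binds CDKs, the centrosome kinase gene Nek2 (0.83) and the securin gene Pttg1 (0.71). Both counts depend on scaling and on saline 1. With quantile normalization the replication list had 3 lower and 2 higher, with equal sums 36 lower and 0 higher, and without saline 1 15 lower and 0 higher. The spindle list had 0 lower and 2 higher with quantile normalization, 22 of 28 lower and 1 higher with equal sums, and 12 lower and 3 higher without saline 1, where its median went from -0.29 to -0.50. Orc2 (-0.24) and Pttg1 (-0.08) turned below 0 with equal sums.

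The cell cycle inhibitor Cdkn1a and several growth arrest genes were among the genes that rose. Of 6 tested genes for CDK inhibitors, 3 rose and 1 fell, against 25.7% and 24.3% of all genes, while with equal sums 1 was higher and 3 lower and with quantile normalization 3 and 3. Cdkn1a, encoding p21, was 4.48, 4.86 and 4.83 in saline and 7.48, 6.99 and 7.36 in LPS, far apart with no overlap. It rose by 2.55 (SE 0.19; limma adjusted p = 6.03e-05), or 5.87-fold, and stayed at 1.77 with equal sums. Cdkn2d (0.88), encoding p19, and Cdkn2b (0.67), encoding p15, were called higher, but with equal sums they were at 0.12 and -0.10. Cdkn2c, encoding p18, was 4.48, 4.63 and 4.19 in saline and 2.71, 2.97 and 2.98 in LPS, and fell by 1.54 (SE 0.16; limma adjusted p = 0.000179).

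Of 19 tested checkpoint and p53 response genes, 7 rose (36.8%, against 25.7% of all genes) and 4 fell (21.1%, against 24.3%), but with equal sums 5 were higher and 11 lower. Gadd45g (2.53), Gadd45b (1.85) and Btg1 (1.78), stress and antiproliferative genes, rose most, and all 3 stayed above 0 with equal sums (0.99 to 1.75). Sesn1 (-1.22), the DNA damage kinase gene Atm (-0.86) and the phosphatase gene Cdc25b (-0.84) fell most. Of 14 tested E2F and pocket protein genes, 4 fell (28.6%) and 1 rose (7.14%), and with equal sums 11 were lower and 0 higher. The retinoblastoma relatives Rbl2 (-1.27) and Rbl1 (-0.62, not called with quantile normalization) and the E2F partner Tfdp2 (-0.69; no LPS 3 value) fell, and E2f5 (0.63; -0.08 with equal sums) rose. Of 9 tested genes of the MYC network, 4 rose (44.4%) and 3 fell (33.3%), but with equal sums 2 were higher and 5 lower. Myc was 1.99, 2.19 and 2.73 in saline and 4.77, 4.42 and 4.09 in LPS, and rose by 2.13 (SE 0.23; limma adjusted p = 0.000202). Its antagonist gene Mxd1 (2.34) rose too, as did the partner gene Max (0.53; -0.25 with equal sums), while Mxi1 (-0.81), Mga (-0.66) and Mnt (-0.44) fell. Mnt passed narrowly (limma adjusted p = 0.0499) and was not called with quantile normalization (-0.25, adjusted p = 0.23) or without saline 1 (adjusted p = 0.151).

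**Figure D4:**
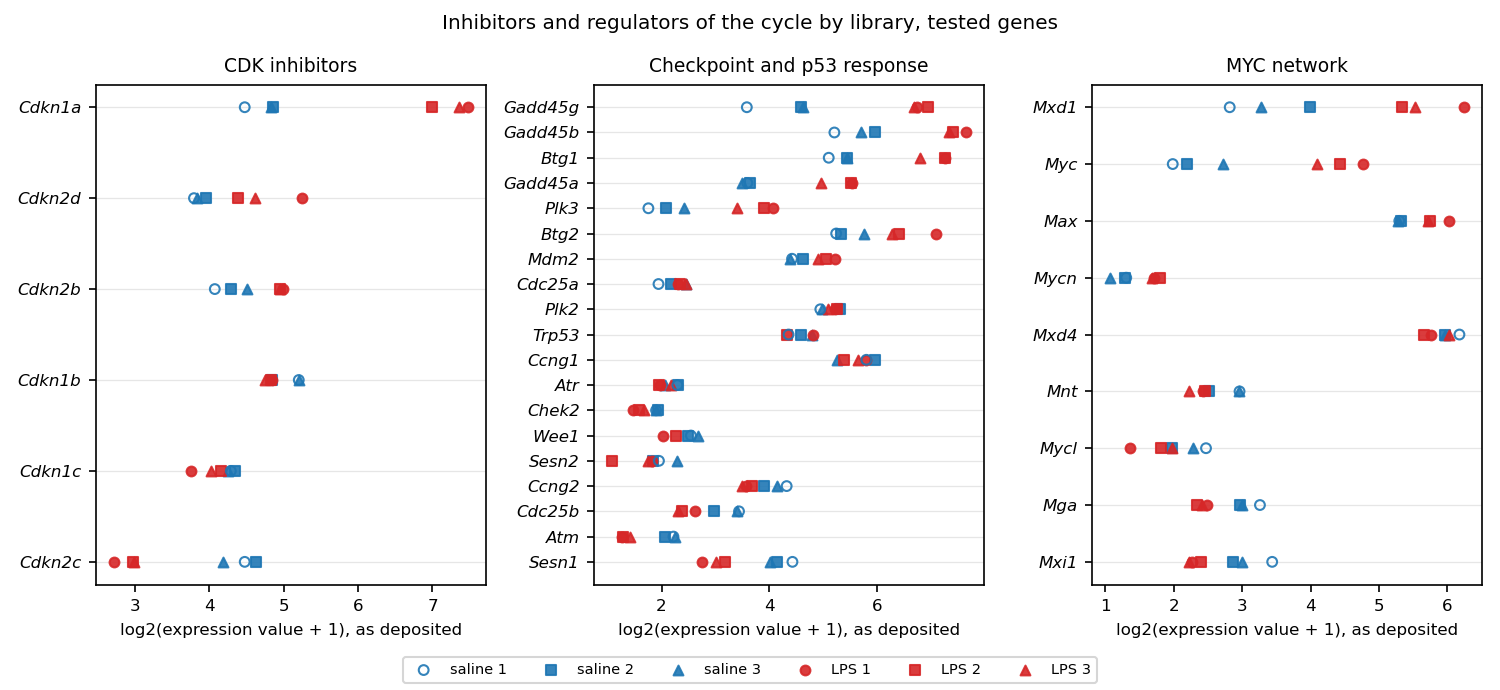
Values by library, as log2(expression value + 1), of tested CDK inhibitor genes, checkpoint and p53 response genes and MYC network genes, ordered by the difference between LPS and saline. In the top rows the red LPS symbols lie to the right of every blue saline symbol, as for Cdkn1a at 6.99 to 7.48 in LPS and 4.48 to 4.86 in saline.

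Markers of cell types that can hold dividing cells, or that change the make-up of the tissue, also differed between the groups. Among all genes tested 24.3% were lower and 25.7% higher, and several counts below depend on scaling. Of 10 B cell markers 9 were lower, and the log2 summed level of the 10 was 7.98 to 8.67 in saline and 5.71 to 6.38 in LPS. Of 9 tested T cell markers 5 were lower, at a summed level of 5.97 to 6.53 and 5.58 to 5.80. That count was 3 with quantile normalization and 9 with equal sums. Of 12 endothelial markers 6 were lower, at 10.15 to 10.28 and 9.70 to 9.88 over the 10 with 6 values. With quantile normalization 11 were lower, and with equal sums 12. Of 10 mature neutrophil markers 9 were higher, at 9.45 to 11.004 in saline and 13.29 to 14.65 in LPS over the 9 with 6 values. Of 10 markers of monocytes and recruited macrophages 9 were higher and 1 lower. The lower one was Lyz2 (-0.999, limma adjusted p = 0.0118). The mean log2 value of the 10 was 4.36 to 5.26 in saline and 6.58 to 7.13 in LPS. Their summed level, which follows the most abundant markers, went the other way, at 11.80 to 12.34 in saline and 11.48 to 11.65 in LPS. Of 12 alveolar macrophage markers 1 was higher and 6 lower, at overlapping summed levels of 8.96 to 9.39 and 9.01 to 9.19. With equal sums 0 were higher and 11 lower. Of 10 alveolar type 2 cell markers 1 was higher and 5 lower, at 14.20 to 14.30 and 13.84 to 13.95 over the 9 with 6 values. With quantile normalization or equal sums 0 were higher and 9 lower. All 10 cardiac muscle markers were lower, at 8.02 to 11.11 in saline and 5.80 to 7.47 in LPS over the 8 with 6 values. Of 6 tested erythroid markers 3 were higher and 0 lower, but with equal sums 1 was higher and 1 lower. The erythroid summed level was 10.07 to 10.82 in saline and 11.46 to 12.29 in LPS over the 6 with 6 values. Neutrophil precursors divide, and of their 10 markers 5 were tested. Prtn3 (1.64), Camp (2.02), Ngp (4.45) and Chil3 (0.55) were higher, and Ltf had a difference of -0.66 (limma adjusted p = 0.282). The others were under the filter, with highest values in any library of 1.57 for Elane, 0.43 for Mpo, 0.95 for Ctsg, 0.26 for Ms4a3 and 0.70 for Fcnb, and Mpo was listed at 0 in LPS 2. Chil3 is also the alveolar macrophage marker counted as higher. It was not called with quantile normalization (-0.16, limma adjusted p = 0.397), with equal sums (-0.25, adjusted p = 0.142) or without saline 1 (adjusted p = 0.0545). With equal sums Ltf was called lower (-1.44, limma adjusted p = 0.0194). The part of cell make-up in the differences of the 41 genes was not tested.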

How the data were processed

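RNA from lung tissue was measured by RNA sequencing in 3 saline and 3 LPS libraries. Trizol extraction and a strand-preserving library kit are named in the labels' protocols. TopHat and the build mm10 are named in the submitters' processing notes. The sources used here do not give counting, annotation or scaling. The authors deposited 1 table per library of log2 values, taken from their distribution to be log2(expression value + 1). Depth is unknown, so no interval from counting is given.

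Libraries were grouped by title. Genes with a value of at least 1 before the log in at least 3 libraries were fitted with limma 3.58.1 (R 4.3.3) with a variance trend, on the deposited values, and p-values were adjusted by Benjamini-Hochberg over all 13116 genes (threshold 0.05). Genes absent from LPS 3 were fitted on the remaining libraries. In 5 simulations of LPS against saline on 13116 genes, 50.6% of 2-fold and 92.4% of 4-fold changes were recovered and 2.59% of calls were false. These changes were set on the log2(expression value + 1) scale. Far fewer genes were changed than were called in the data, and both groups had the same spread. The shares therefore need not hold for the fit reported here. Exact permutation tests were not used, since 3 against 3 cannot go below 0.1.

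The 41 genes and all lists were chosen with earlier results of these data known, so lists are described by counts and medians with no test. All 41 genes are named. From each other cell cycle list, up to 3 called genes in each direction with the largest difference are named. E2f2 and E2f3 are named as well, a choice made after their values were seen. Of the called genes' promoters, those with a motif match are printed, with the first listed window where a gene has several. Among marker lists, only counts, summed levels and mean values are given, with 2 exceptions. The 10 neutrophil precursor markers and Lyz2 are named, a choice made after their values were seen. Gene positions are from GENCODE M21 (GRCm38, the same assembly as mm10), and promoters from RefSeq. Alternatives were quantile normalization, equal sums, a pseudocount of 0.1, no filter, a mean of at least 5, no variance trend, the replicate number as a block, leaving out each library and, added after seeing the data, leaving out saline 2 and LPS 3.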

Additional observations from a re-analysis of the deposited data

How the results depend on the processing

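Of the 7 genes called lower, E2f1 and Cdk6 were called lower under every alternative that tested them, and Cenpa under every such alternative but quantile normalization. Over all genes, equal sums gave 789 called higher and 8535 lower, and a mean of at least 5 gave 1752 lower, with medians of -0.68 and 0.16, and no filter gave a median of -0.0154. Among G1/S genes, the number higher was 1 with quantile normalization and 1 without saline 2 and LPS 3 together. The number lower among them was 17 with equal sums, 3 with no filter, 2 with a mean of at least 5 and 2 without saline 2 and LPS 3 together, and their median was -1.02 with equal sums. Among G2/M genes the number lower was 0 with quantile normalization, 9 with equal sums and 1 without saline 2 and LPS 3 together, and none was tested with a mean of at least 5. Leaving out single libraries gave 0 (without saline 1) to 3 (without saline 2) G1/S genes higher, 2 (without saline 3, LPS 2 or LPS 3) to 11 (without saline 1) lower, and 1 (without saline 2, saline 3 or LPS 2) to 8 (without saline 1) G2/M genes lower. It gave differences of -0.0328 to 0.0942 for Cdk2, -0.37 to 0.18 for Mcm3, -0.35 to 0.0044 for Aurka, -0.52 to 0.22 for Ube2c and -0.51 to 0.25 for Mki67, none of them called in any of these fits. Signs also turned with quantile normalization for Ccnd1 (-0.31), Cdk4 (-0.19), Pcna (-0.0704), Aurka (0.19), Ube2c (0.0689) and Mki67 (0.15), with equal sums for Ccnd1 (-0.56), Cdk4 (-0.47), Cdk2 (-0.67), Pcna (-0.28), Tyms (-0.26) and Ccna2 (-0.37), and without saline 2 and LPS 3 together for Mcm3 (0.0403). With the replicate block, 3 G1/S genes were lower (Ccnd2, Rrm2 and Mcm7 were not called, at adjusted p = 0.0567, 0.062 and 0.0576, and Mcm2 was, at 0.0444) and the difference of Ube2c was 0.22. Whether libraries of the same number were paired is not stated. Across 10295 genes, deviations from the group means correlated at -0.23, -0.08 and -0.25 for libraries of the same number. For libraries of different numbers they correlated at -0.013 to 0.22. Deviations within a group of 3 sum to 0, which ties these correlations together, so they cannot decide pairing. The causes of these changes were not tested. Unknown depth limits what can be said of the 9 genes under the filter on low values.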
